A study of Mus musculus with 6 samples.

Results

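Macrophages that came through a sort for tdTomato in the injured mouse heart numbered 376 of 16637 kept cells. They were chosen by transcripts from the infarct and the peri-infarct libraries. A cell was kept with at least 500 detected genes and at most 10% of its UMIs (unique molecular identifiers, each standing for 1 captured transcript) from mitochondrial genes. It counted as a macrophage when at least 4 of 7 myeloid genes (Ptprc, Csf1r, Cd68, C1qa, Tyrobp, Fcer1g and Lyz2) had a UMI and the endothelial gene Cdh5 had none. The infarct library gave 233 macrophages of 8681 kept cells and the peri-infarct library 143 of 7956. These 8 genes chose the cells, so their levels are a description and support nothing.

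The groups were infarct-area cells of the left ventricle after ligation of the left anterior descending (LAD) coronary artery, peri-infarct cells of the same injury taken without atria, and ventricular cells of sham-operated mice. All carried Tbx18CreER/+;Rosa26tdT/+, the sham controls included. All mice received intraperitoneal tamoxifen over 4 days with a washout after it, and hearts were digested with collagenase and dispase before the sort. In this model tamoxifen lets the Cre of Tbx18-expressing cells switch on tdTomato for good, so the label records Tbx18 expression around the time of tamoxifen, in cardiac pericytes, smooth muscle, some fibroblasts and epicardial cells. Brain libraries of the same genotype, taken after photothrombotic stroke or sham surgery, were used only for side values. Each of the 6 groups was 1 library, the time after injury and the number of animals are not given in the sources used here, and the tdTomato transcript was not analysed here. No difference below has a replicate check, and every interval covers counting error only.

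Macrophages take up dead cells and debris after an infarct and release cytokines, chemokines and growth factors. The healthy mouse heart holds long-lived resident macrophages, many with the hyaluronan receptor Lyve1, the folate receptor Folr2, the scavenger receptor Cd163 and the phosphatidylserine receptor Timd4. After injury, monocytes that carry the chemokine receptor Ccr2 enter and become macrophages, and cells that digest lipid-rich debris raise Trem2, Spp1, Gpnmb, Fabp5 and lysosomal enzymes. The transcription factor PU.1, encoded by Spi1, is required for the lineage.

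Promoters are shown for 4 genes that were lower in infarct than in peri-infarct macrophages, so that the letters upstream of genes that moved together can be read. They are those of the mannose receptor Mrc1, the platelet-type chemokine Pf4, the monocyte-attracting chemokine Ccl8 and the haemoglobin-haptoglobin receptor Cd163. Sequences are from RefSeq on GRCm38.p6, plus strand, 5′ to 3′, upstream of the annotated start and trimmed to stretches outside annotated exons. Capitals mark the 7 letters GAGGAAG, a PU.1-type motif, or their complement.
Mrc1, chr2:14229164-14229391: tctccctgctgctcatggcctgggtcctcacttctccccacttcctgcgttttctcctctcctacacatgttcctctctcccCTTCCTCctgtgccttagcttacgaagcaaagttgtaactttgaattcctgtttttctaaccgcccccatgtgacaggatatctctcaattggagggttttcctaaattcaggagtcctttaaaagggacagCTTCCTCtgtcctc
Pf4, chr5:90772185-90772434: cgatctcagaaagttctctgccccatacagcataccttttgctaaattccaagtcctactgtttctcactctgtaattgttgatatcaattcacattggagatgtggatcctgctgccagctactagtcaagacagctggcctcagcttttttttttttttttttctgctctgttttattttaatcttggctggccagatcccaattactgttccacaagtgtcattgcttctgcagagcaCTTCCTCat
Ccl8, chr11:82114935-82115184: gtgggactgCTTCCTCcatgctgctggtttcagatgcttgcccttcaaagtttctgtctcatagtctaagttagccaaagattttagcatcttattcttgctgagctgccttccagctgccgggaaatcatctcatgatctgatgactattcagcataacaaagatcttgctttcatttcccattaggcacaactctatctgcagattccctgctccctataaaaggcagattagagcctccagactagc
Cd163, chr6:124304429-124304650: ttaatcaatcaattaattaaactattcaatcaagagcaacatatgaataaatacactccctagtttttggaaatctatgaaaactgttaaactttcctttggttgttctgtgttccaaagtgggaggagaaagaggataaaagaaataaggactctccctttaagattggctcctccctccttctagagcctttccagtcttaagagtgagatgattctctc
Mrc1 holds 2 copies on the opposite strand, at bases 168 and 36 before the start. Pf4 holds it at base 9 and Ccl8 at base 241, also on the opposite strand, and the Cd163 stretch holds none. Over windows of 250 bases on both strands, 10.4% of 27025 promoters held the motif. Of the 12 resident-macrophage genes listed for this report, 10 had a promoter in the table and 5 held the motif (Mrc1, Fcna, Igf1, Cbr2 and F13a1). Of 14 general macrophage genes, 10 had a promoter and 4 held it (Fcgr1, Laptm5, C1qc and Itgam). Of all 35 genes at least 2-fold lower in infarct macrophages, 23 had a promoter and 9 held it (39.1%), beside 40% of the general ones. The shorter MAF-type half-site TGCTGA stood in 15.8% of all promoters, in 3 of the 10 resident-gene promoters and in 3 of the 10 general ones. It stood in 6 of the 23 promoters of the lower genes. A match is a description of letters and not a bound site.

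The number of myeloid markers per cell fell into separate ranges with few cells between them. Among kept cells without Cdh5, 6325 infarct cells had none of the 7 markers and 180 had all 7. In the peri-infarct library 5461 had none and 118 had all 7. At the threshold itself, 3 infarct cells and 5 peri-infarct cells had exactly 4 markers, while 15 infarct cells and 12 peri-infarct cells had 3. The infarct cells with 4 markers had a median of 30 UMIs from the 7 genes and 0.0603% of their UMIs from fibroblast and mural genes. Those with 3 had a median of 4 UMIs from the 7 genes and 4.52% from fibroblast and mural genes. The peri-infarct cells with 4 markers had a median of 23 UMIs from the 7 genes, 0.0251% from fibroblast and mural genes, and no C1qb UMI. In 1 of these cells the 7 genes gave 0.0148% of UMIs and fibroblast and mural genes 4.96%. In another of them the shares were 0.0278% and 2.99%. Peri-infarct cells with 3 markers had a median of 4 UMIs from the 7 genes and 1.78% from fibroblast and mural genes.

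**Figure D1:**
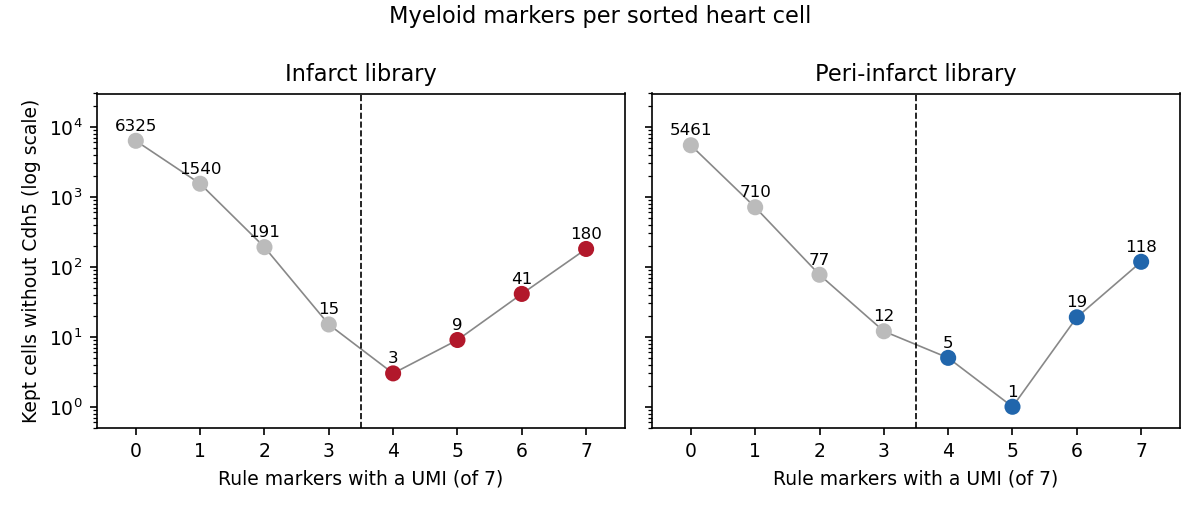
Number of kept heart cells without Cdh5 (vertical axis, log scale) by how many of the 7 myeloid markers had a UMI (horizontal axis), infarct library left and peri-infarct library right. Coloured points right of the dashed line are the macrophages; 180 infarct and 118 peri-infarct cells had all 7 markers, and 3 infarct and 5 peri-infarct cells had exactly 4.

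Macrophages made up 2.68% of kept infarct cells (exact Clopper-Pearson 95% interval 2.35 to 3.05) and 1.80% of kept peri-infarct cells (1.52 to 2.11). The same rule found 23 cells in the sham heart, 0.169% of its kept cells (0.107 to 0.253). Only 3 of those 23 sham cells had more UMIs from the 7 markers than from fibroblast and mural genes, against 203 of 233 infarct and 130 of 143 peri-infarct macrophages. Median depth was 8700 UMIs and 2567 genes in infarct macrophages, and 10989 UMIs and 3100 genes in peri-infarct macrophages, against 1357 UMIs in the sham cells. The share from the sham library therefore cannot be told apart from its lower depth. A sort sets these shares too, so they are shares of sorted cells and not of heart tissue. No barcode was shared between the macrophages of the infarct and peri-infarct libraries, which shared 147 of all their barcodes.

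Levels are given as CPM, the UMIs of a gene summed over a library's macrophages for every 1000000 of their UMIs. The comparison was with other sorted cells, those of the same library with at most 1 of the 7 markers and no Cdh5, 7865 in the infarct and 6171 in the peri-infarct. Of the genes that chose the cells, the lysozyme gene Lyz2 had 17934 CPM in infarct and 14307 CPM in peri-infarct macrophages, and the CSF1 receptor gene Csf1r 526 CPM in infarct and 608 CPM in peri-infarct macrophages. C1qa had 4251 CPM in infarct and 4679 CPM in peri-infarct macrophages, and the signalling adaptor gene Tyrobp 2281 CPM in infarct and 1849 CPM in peri-infarct macrophages. Genes outside the rule were also far higher in the macrophages. Both groups were chosen on the 7 markers, so this is a description and no test of the label. The complement gene C1qb reached 3974 CPM in infarct macrophages, against 1.02 CPM in other sorted cells. In the peri-infarct it reached 3914 CPM in macrophages, against 0.932 CPM in other sorted cells. The F4/80 gene Adgre1 had 402 CPM in infarct macrophages, against 0.177 CPM in other sorted cells, and 387 CPM in peri-infarct macrophages, against 0.104 CPM in other sorted cells. Infarct cells with 2 and 3 markers, which are in neither group, had 3.52 and 22.5 CPM of C1qb. The other sorted cells were chosen for few markers, so their levels can understate the background of free macrophage RNA.

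Of 14 general macrophage genes outside the rule, all 14 passed a floor of 50 CPM in the mean of the groups compared. They summed to 14005 CPM in infarct and 13003 CPM in peri-infarct macrophages, against 25.8 CPM in infarct and 19.5 CPM in peri-infarct other sorted cells. The lysosomal protease Ctss stood at 2003 CPM in infarct and 1438 CPM in peri-infarct macrophages, and the membrane protein Ms4a7 at 2110 CPM in infarct and 1374 CPM in peri-infarct macrophages. PU.1 itself (Spi1) had 336 CPM in infarct and 343 CPM in peri-infarct macrophages, against 0.104 CPM in infarct and 0.148 CPM in peri-infarct other sorted cells. Also among the 20 genes that stood furthest above the other sorted cells in both libraries were Wfdc17, Laptm5, Lcp1, the NADPH oxidase subunit Cybb, the pore-forming protein Mpeg1 and the complement receptor C3ar1. The chemokine genes Ccl4 and Ccl3 belonged to that group too, with 1540 and 768 CPM in infarct and 1397 and 631 CPM in peri-infarct macrophages. In the infarct, 457 of 2951 genes past the floor were at least 2-fold higher in macrophages than in other sorted cells (15.5%) and 585 at least 2-fold lower (19.8%). In the peri-infarct, 492 of 3138 were higher (15.7%) and 559 lower (17.8%). The cells were chosen on the same transcripts, so these counts describe them without a test.

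Transcripts of other blood lineages were at low levels among the macrophages. The 9 dendritic-cell genes summed to 55.7 CPM in infarct and 67.5 CPM in peri-infarct macrophages. The 5 nonclassical monocyte genes summed to 46.7 CPM in infarct and 49.2 CPM in peri-infarct macrophages. No gene of either list passed the floor of 50 CPM. Whether single cells of these types met the rule was not tested. Of 9 lymphoid genes, 7 were at 0 in both groups and the sum was 0.857 CPM in infarct and 1.57 CPM in peri-infarct macrophages. Of 5 mast-cell genes, 4 were at 0 in both. Of 9 neutrophil genes, 4 were at 0 in both, and the sum was 52.3 CPM in infarct and 139 CPM in peri-infarct macrophages. The calprotectin subunit S100a9 had 0 UMIs in infarct macrophages and 110 UMIs in peri-infarct macrophages, all from 1 cell. The monocyte gene Ly6c2 was low in both, at 2.57 CPM in infarct and 5.76 CPM in peri-infarct macrophages. Microglial Sall1 was at 0 in both.

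Variety among the macrophages was described by grouping the 376 cells of both libraries by their transcripts into 6 clusters. The genes that formed a cluster cannot be tested on it, and cluster sizes are not compared between the areas. C1qb ran between 1730 and 5213 CPM over all 6 clusters, so every cluster held macrophage transcripts at a high level. The largest, with 110 cells, had 1354 CPM of the cytokine gene Il1b, against 160 CPM in the rest. The same cluster had 2133 CPM of the endotoxin co-receptor Cd14, against 547 CPM in the rest, and 1667 CPM of Ccl3, against 410 CPM. It was left without a cell type name.

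A second cluster of 87 cells held 1513 CPM of the lysosome-linked glycoprotein gene Gpnmb, against 262 CPM in the rest. Its galectin-3 gene Lgals3 reached 5029 CPM, against 1262 CPM, its fatty-acid-binding gene Fabp5 4009 CPM, against 1076 CPM, and its osteopontin gene Spp1 1791 CPM, against 526 CPM. A cluster of 74 cells carried antigen-presentation genes, with 2477 CPM of H2-Eb1, against 470 CPM in the rest, and 5818 CPM of Cd74, against 1343 CPM. It also had 165 CPM of Ccr2, against 48.3 CPM in the rest, and 125 CPM of the interferon regulator Irf7, against 28.6 CPM. Its leading gene Ccr7 rested on few cells, since 81.5% of the infarct Ccr7 UMIs came from 1 macrophage.

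A cluster of 33 cells had 6 listed resident-macrophage genes among its 10 leading genes and is called resident-macrophage-like. In it Lyve1 reached 781 CPM, against 17.4 CPM in the rest, Cd163 447 CPM, against 25.6 CPM, Ccl8 3995 CPM and Folr2 1005 CPM. Spp1 was at 2.90 CPM and Gpnmb and Il1b at 0 in these cells, while the lipid-linked genes Trem2 (360 CPM) and Cd36 (154 CPM) were present. Of the 33 cells, 28 came from the peri-infarct library, so the cluster and that library cannot be told apart. The other clusters were led by stromal genes. One of 40 cells was led by Col1a1, Col3a1 and Dcn and held a median of 18470 UMIs per cell. One of 32 cells was led by the mural genes Rgs5 and Myh11 together with the histone gene Hist1h2ap and the topoisomerase gene Top2a, and it had 523 CPM of the division marker Mki67.

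**Figure D2:**
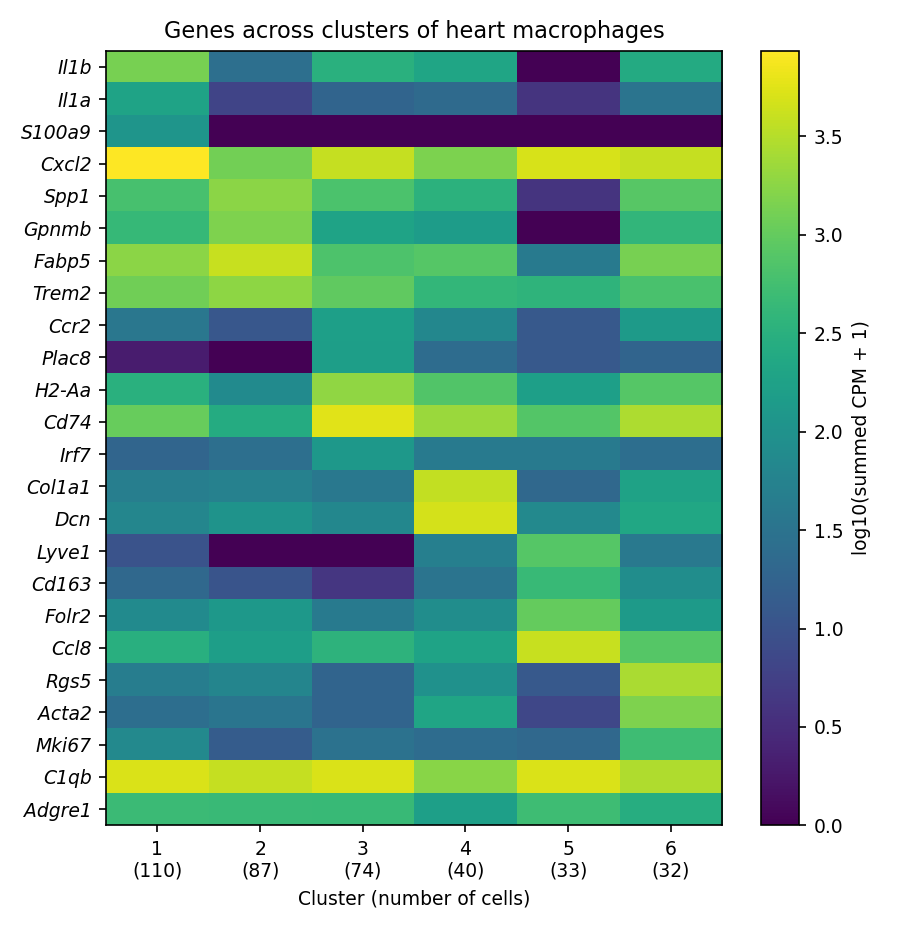
Level of selected genes (rows) in the 6 clusters of the 376 macrophages (columns, cell numbers in parentheses), as log10 of summed CPM + 1. C1qb is high in every column, Lyve1, Cd163, Folr2 and Ccl8 are highest in the cluster of 33 cells, and Col1a1 and Dcn stand out in the cluster of 40 cells.

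Most macrophages held almost no stromal transcripts, and a minority held about as many as the other sorted cells did. The measure was the share of a cell's UMIs from 8 fibroblast and 9 mural genes, among them Col1a1, Dcn, Rgs5 and Acta2. In 203 infarct macrophages whose marker UMIs exceeded their stromal UMIs, called stromal-poor below, the median stromal share was 0.0581%, and in the 130 such peri-infarct macrophages it was 0.0242%. The other sorted cells had medians of 4.41% in the infarct and 3.10% in the peri-infarct. The remaining 30 infarct and 13 peri-infarct macrophages had medians of 2.95% in the infarct and 2.47% in the peri-infarct. They carried 86.2% of the stromal UMIs of all infarct macrophages and 82.3% of those of all peri-infarct macrophages. The lists differed in this. In the infarct these cells held 15096 of 16462 fibroblast UMIs but 756 of 1918 mural UMIs. In the peri-infarct they held 9166 of 10641 fibroblast and 1675 of 2534 mural UMIs. The stromal-poor set was therefore not cleared of mural transcripts.

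The stromal-rich macrophages had higher median depth, though depths of both kinds overlapped. The median was 16309 UMIs in the infarct and 27659 UMIs in the peri-infarct, against 8402 UMIs in stromal-poor infarct and 10459 UMIs in stromal-poor peri-infarct macrophages. Scrublet, a program that scores each cell against simulated pairs of cells, marked 26 of the 30 stromal-rich infarct macrophages (86.7%) and 10 of the 13 stromal-rich peri-infarct macrophages (76.9%) as doublets. It marked 7 of 203 stromal-poor infarct macrophages (3.45%) and 7 of 130 stromal-poor peri-infarct macrophages (5.38%), against 7.50% of infarct and 6.30% of peri-infarct other sorted cells. The number of marks was set by the barcodes of the library, 0.8% for each 1000. Stromal-rich macrophages were chosen for holding both marker and stromal UMIs, as simulated pairs of such cells also do. Their share of marks is therefore a description and no test. More fibroblast than mural UMIs were present in 28 of the 30 infarct and 10 of the 13 peri-infarct stromal-rich macrophages.

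**Figure D3:**
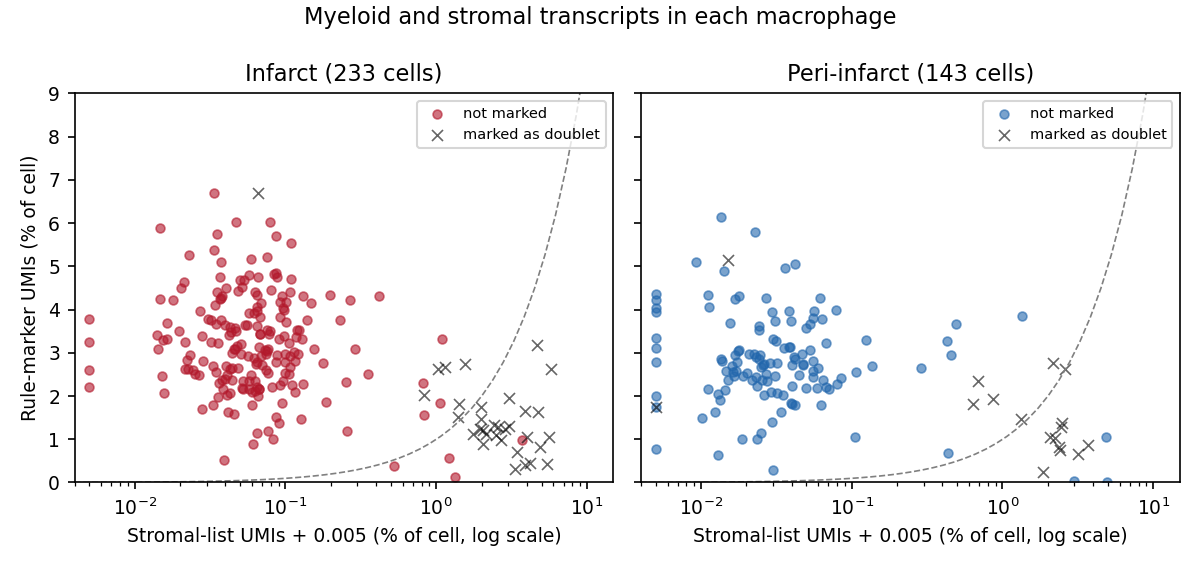
Each point is 1 macrophage, infarct left and peri-infarct right: its share of UMIs from 17 fibroblast and mural genes (horizontal, log scale, 0.005 added) and from the 7 marker genes (vertical). Crosses are cells marked as doublets and the dashed line is where both shares are equal; crosses gather right of it, where 26 of 30 infarct and 10 of 13 peri-infarct cells were marked.

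Tbx18, the gene whose promoter drives the label, was scarce in stromal-poor macrophages. It had a UMI in 2 of 203 infarct cells (0.985%, exact interval 0.120 to 3.51) and in 3 of 130 peri-infarct cells (2.31%, 0.478 to 6.60). In stromal-rich macrophages it had one in 10 of 30 infarct cells (33.3%, 17.3 to 52.8) and in 6 of 13 peri-infarct cells (46.2%, 19.2 to 74.9). In other sorted cells it had one in 23.3% in the infarct and 23.7% in the peri-infarct. Summed Tbx18 was 1.09 CPM in stromal-poor infarct and 1.94 CPM in stromal-poor peri-infarct macrophages. In stromal-rich macrophages it was 30.2 CPM in the infarct and 27.5 CPM in the peri-infarct, against 27.3 CPM in infarct and 31.2 CPM in peri-infarct other sorted cells.

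Between all macrophages and other sorted cells, a gap in Tbx18 was also seen at equal depth. Stromal-poor and stromal-rich macrophages, which differed in median depth, were not compared with each other at equal depth. With cells thinned at random to 2000 UMIs, which left out no macrophage but 127 infarct and 156 peri-infarct other sorted cells of lower depth, Tbx18 had a UMI in 0.429% of infarct and 0.699% of peri-infarct macrophages, against 5.27% of infarct and 5.35% of peri-infarct other sorted cells. Lists of other sorted types were also lower than in other sorted cells, but to different degrees. Mural genes summed to 632 CPM in stromal-poor infarct and 556 CPM in stromal-poor peri-infarct macrophages. In other sorted cells they summed to 4341 CPM in the infarct and 3917 CPM in the peri-infarct. The epicardial list, which holds Tbx18, summed to 4.35 CPM in stromal-poor infarct and 9.70 CPM in stromal-poor peri-infarct macrophages, against 319 CPM in infarct and 384 CPM in peri-infarct other sorted cells. Endothelial genes summed to 91.96 CPM in stromal-poor infarct and 125 CPM in stromal-poor peri-infarct macrophages, against 183 CPM in infarct and 216 CPM in peri-infarct other sorted cells. Cells with a Cdh5 UMI were left out of all these groups, which limits the endothelial values. Only 1 of the 7 endothelial genes passed the floor of 50 CPM. How the stromal-poor macrophages came to pass the tdTomato sort was not tested. Whether they made tdTomato themselves, carried it from a labelled cell or passed without it cannot be told apart from these values.

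The comparison between the areas asks how macrophages within the infarct differ from those beside it. Of 2840 genes with at least 50 CPM in the mean of both groups, 12 were at least 2-fold higher in infarct macrophages (0.423%) and 35 at least 2-fold lower (1.23%), 47 in all (1.65%). With edgeR's TMM scaling, which set the median log2 ratio of all genes at 0.06, the counts were 18 higher and 26 lower. Ratios were taken on CPM + 1 and the median log2 ratio over all 2840 genes was -0.05. Among stromal-poor macrophages alone, 7 of 2733 genes were higher (0.256%) and 35 lower (1.28%), 42 in all (1.54%). "Higher" and "lower" below mean past this 2-fold size, and no p-value exists with 1 library per area. Fewer cells of one kind and less RNA per cell cannot be told apart in summed levels.

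Resident-macrophage genes had the lowest median of all the gene lists measured. Of 12 listed genes, 10 passed the floor, 6 were lower in the infarct, none was higher, and the median log2 ratio was -1.26. In stromal-poor macrophages it was -1.35, with 6 lower, and over all alternatives tried it lay between -1.40 and -1.14. The list and its genes were chosen with earlier results of these data known, so the count is a description.

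Lyve1 (chr7:110850607-110863239 on mm10) had 24.4 CPM in infarct macrophages, against 147 CPM in peri-infarct macrophages, a log2 ratio of -2.54. Cd163 (chr6:124304656-124330527), whose protein takes up haemoglobin bound to haptoglobin, had 13.7 CPM in infarct macrophages, against 116 CPM in peri-infarct macrophages, at -2.99. Cbr2, a carbonyl reductase, had 51.4 CPM in infarct macrophages, against 226 CPM in peri-infarct macrophages, at -2.11. All these intervals lay below an even ratio, with the ratio for Lyve1 between 0.123 and 0.222 and that for Cd163 between 0.0788 and 0.171.

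F13a1, the coagulation factor XIII subunit made by resident macrophages, had 231 CPM in infarct macrophages, against 682 CPM in peri-infarct macrophages, a log2 ratio of -1.56. Folr2 had 95.1 CPM in infarct macrophages, against 252 CPM in peri-infarct macrophages, at -1.40. Mrc1 (chr2:14229392-14332057), whose promoter is printed above with 2 motif copies, had 240 CPM in infarct macrophages, against 521 CPM in peri-infarct macrophages, at -1.12. Limiting the cells to at most 5% mitochondrial UMIs ended the calls of F13a1 (-0.95) and Mrc1 (-0.59). It left 143 infarct and 53 peri-infarct macrophages.

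The resident list was not lower in every member. The growth factor gene Igf1 had 320 CPM in infarct and 308 CPM in peri-infarct macrophages, a log2 ratio of 0.05, with 262 CPM in infarct and 275 CPM in peri-infarct other sorted cells. Fcna, Gas6 and Vsig4 had log2 ratios of -0.52, -0.40 and -0.36, which did not reach 2-fold. Timd4, the textbook resident marker, was under the floor at 6.43 CPM in infarct and 15.2 CPM in peri-infarct macrophages. The chemokine gene Ccl24 was under it too, at 11.1 CPM in infarct and 60.7 CPM in peri-infarct macrophages.

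The lectin genes Mgl2 and Cd209f lie outside the resident list. Both were among the genes named for the lowest ratios, so their direction adds no support to that list's result. The lectin gene Mgl2, often used as a mark of alternative activation, had 12.4 CPM in infarct macrophages, against 126 CPM in peri-infarct macrophages, a log2 ratio of -3.24 and the lowest of all tested genes. The lectin gene Cd209f had 17.1 CPM in infarct macrophages, against 90.6 CPM in peri-infarct macrophages, at -2.34, but 97.5% of its infarct UMIs came from 1 cell. Without the top cell of each library its log2 ratio was -5.64. Of 9 alternative-activation genes 7 passed the floor and 3 were lower (Mgl2, Cd163 and Mrc1), 2 of which the resident list also holds. Arg1, the arginase of that list, had 38.6 CPM in infarct and 64.4 CPM in peri-infarct macrophages and did not reach 2-fold.

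The share of macrophages with a UMI of these genes was compared at equal depth. With every macrophage thinned to 2000 UMIs, which left none out, Lyve1 had a UMI in 2.58% of infarct macrophages (0.951 to 5.52) and in 16.8% of peri-infarct macrophages (11.1 to 23.9). Unthinned, the shares were 4.72% in infarct and 23.8% in peri-infarct macrophages. In other sorted cells the thinned share was 0.258% in the infarct and 0.299% in the peri-infarct. These cells were chosen for few markers, so this can understate the background of free RNA. F13a1 had a UMI in 25.8% of infarct macrophages (20.3 to 31.9) and in 52.4% of peri-infarct macrophages (43.9 to 60.9). Cbr2 had one in 7.30% of infarct and 27.3% of peri-infarct macrophages. Mrc1 had one in 36.5% of infarct and 49.0% of peri-infarct macrophages, and there the counting intervals overlapped. Neither overlap nor separation of such intervals is a test between the areas.

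The co-occurrence of the listed genes in a cell gave the same order. Among stromal-poor macrophages thinned to 2000 UMIs, at least 3 of the 12 resident genes were present in 45 of 203 infarct cells (22.2%, 16.7 to 28.5) and in 59 of 130 peri-infarct cells (45.4%, 36.6 to 54.3). At least 4 were present in 7.39% of infarct cells (4.19 to 11.9) and in 30.8% of peri-infarct cells (23.0 to 39.5). The intervals of the areas did not overlap at either count. They cover counting error within a library only, so this is no test between the areas.

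**Figure D4:**
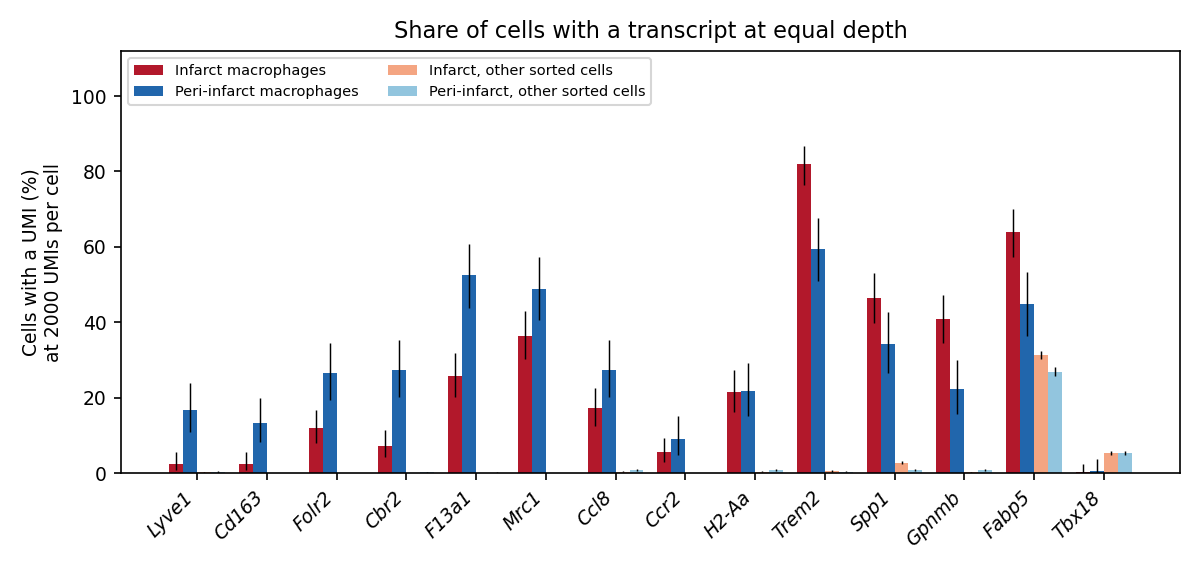
Percentage of cells with a UMI of each gene after thinning every cell to 2000 UMIs (vertical axis), in infarct macrophages, peri-infarct macrophages and the other sorted cells of both libraries; lines are exact 95% intervals of counting error. Lyve1, Cd163, Folr2, Cbr2 and F13a1 are less frequent in infarct than in peri-infarct macrophages, Trem2, Gpnmb and Fabp5 more frequent, and H2-Aa about even, at 21.5% of infarct and 21.7% of peri-infarct macrophages.

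Genes for lipid handling and lysosomes had list medians above that of all genes, with no member past 2-fold. Of 11 lipid-associated genes 10 passed the floor, none was higher or lower, and the median log2 ratio was 0.55, against -0.05 over all tested genes. Of 13 lysosomal genes all 13 passed the floor, none was past 2-fold, and the median was 0.33. Over the alternatives the medians ran between 0.33 and 0.66 for the lipid-associated list and between 0.26 and 0.43 for the lysosomal list.

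Fabp5 came closest to 2-fold, with 2218 CPM in infarct macrophages, against 1124 CPM in peri-infarct macrophages, a log2 ratio of 0.98 and a ratio between 1.88 and 2.08. Gpnmb had 686 CPM in infarct and 360 CPM in peri-infarct macrophages, at 0.93. Trem2, the lipid-sensing receptor, had 1220 CPM in infarct and 788 CPM in peri-infarct macrophages, at 0.63, and Spp1 had 951 CPM in infarct and 628 CPM in peri-infarct macrophages, at 0.60. The cathepsin genes Ctsl, Ctsd and Ctsb had log2 ratios of 0.92 (1.09 and past 2-fold in stromal-poor macrophages), 0.82 and 0.58, and Psap, the precursor of the saposins, 0.73. Fabp5 and Gpnmb passed 2-fold under TMM scaling (1.08 and 1.03).

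After thinning, Trem2 had a UMI in 82.0% of infarct macrophages (76.4 to 86.7) and in 59.4% of peri-infarct macrophages (50.9 to 67.6). Gpnmb had one in 40.8% of infarct macrophages (34.4 to 47.4) and in 22.4% of peri-infarct macrophages (15.8 to 30.1). At least 4 lipid-associated genes were present in 83.7% of stromal-poor infarct macrophages (77.9 to 88.5) and in 59.2% of stromal-poor peri-infarct macrophages (50.3 to 67.8). Spp1 had a UMI in 46.4% of infarct and 34.3% of peri-infarct macrophages, and in 2.78% of infarct and 0.914% of peri-infarct other sorted cells.

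Acp5, the tartrate-resistant acid phosphatase, was higher, with 325 CPM in infarct macrophages, against 156 CPM in peri-infarct macrophages, a log2 ratio of 1.06 and a ratio between 1.83 and 2.40. Its value in stromal-poor macrophages was 1.12. Thinned, Acp5 had a UMI in 36.5% of infarct macrophages (30.3 to 43.0) and in 19.6% of peri-infarct macrophages (13.4 to 27.0). Choosing the macrophages again on thinned counts gave 0.88 and ended its call.

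**Figure D5:**
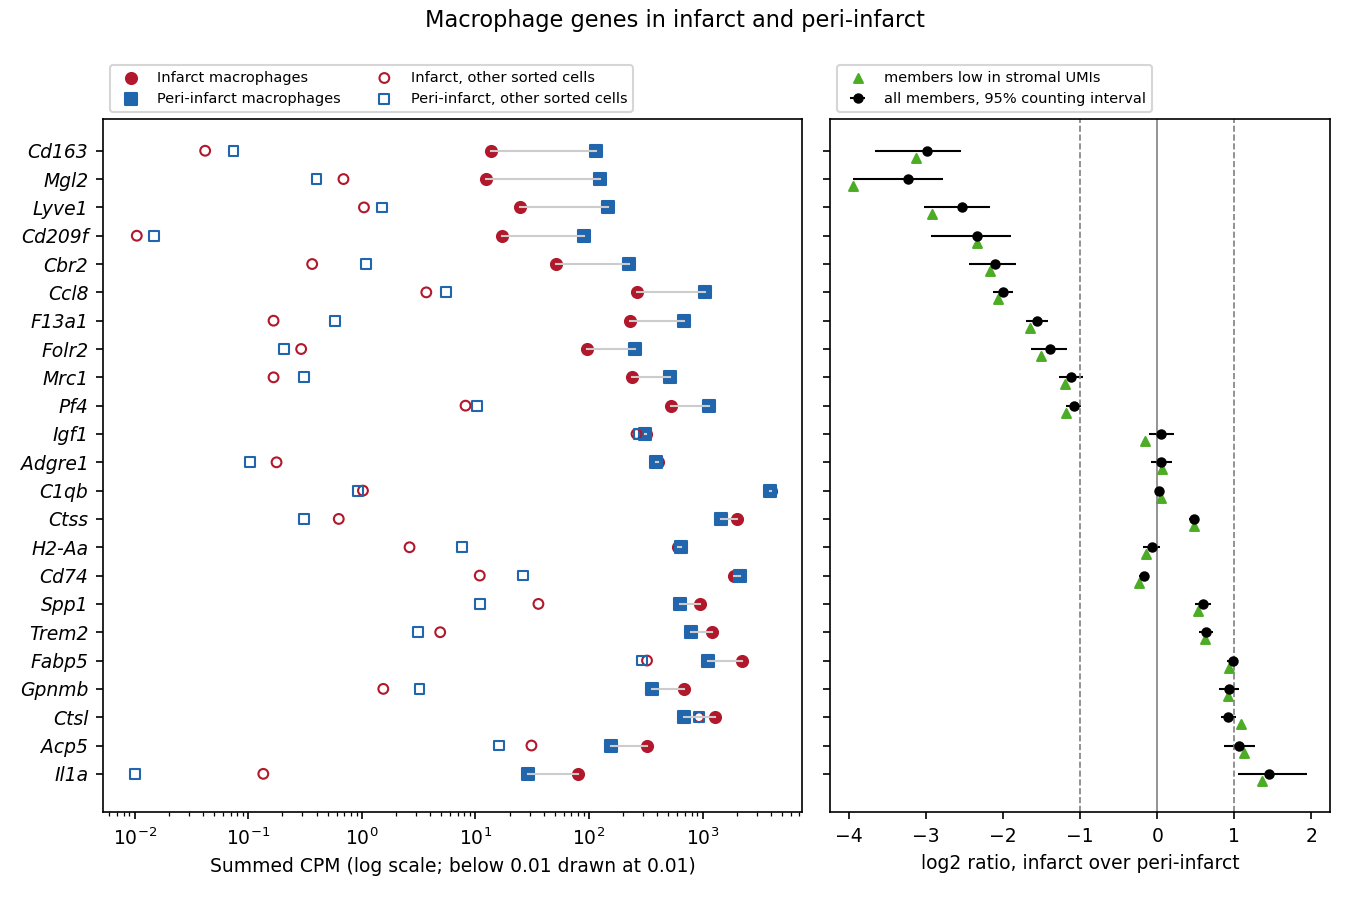
Left, summed CPM (log scale) of 23 macrophage genes in infarct macrophages, peri-infarct macrophages and the other sorted cells of both libraries; right, log2 ratio of infarct over peri-infarct macrophages with 95% counting intervals, and triangles for stromal-poor macrophages. Cd163 (-2.99) and Mgl2 (-3.24) lie furthest to the left, C1qb (0.02) and Adgre1 (0.05) near 0, and Acp5 (1.06) and Il1a (1.45) past the right dashed line that marks 2-fold.

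Inflammatory genes had no common direction. Of 12 cytokine and cytokine-linked genes 8 passed the floor, 1 was higher, none was lower, and the median log2 ratio was -0.05. The higher one was Il1a, with 80.6 CPM in infarct macrophages, against 28.8 CPM in peri-infarct macrophages, a log2 ratio of 1.45. Its call was lost when macrophages were chosen again on thinned counts (0.72). After thinning it had a UMI in 8.15% of infarct (4.98 to 12.4) and 4.20% of peri-infarct macrophages (1.56 to 8.91), with overlapping counting intervals. Tnf had 395 CPM in infarct and 229 CPM in peri-infarct macrophages, at 0.78, and Il1b had 404 CPM in infarct and 488 CPM in peri-infarct macrophages, at -0.27. Il10, an anti-inflammatory cytokine, had 39.0 CPM in infarct and 66.0 CPM in peri-infarct macrophages, at -0.74.

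Among 14 chemokine genes 12 passed the floor and 2 were lower, Ccl8 and Pf4, and the median was -0.20. Ccl8 (chr11:82115185-82116799), which the resident-macrophage-like cluster held at its highest level, had 262 CPM in infarct macrophages, against 1051 CPM in peri-infarct macrophages, a log2 ratio of -1.999. With at most 5% mitochondrial UMIs it was -0.47 and no longer past 2-fold. Pf4 (chr5:90772435-90773383) had 531 CPM in infarct macrophages, against 1127 CPM in peri-infarct macrophages, at -1.08, and its call was lost under TMM scaling (-0.98). Ccl12 and Ccl6 stood at -0.98 and -0.97 over all macrophages and passed 2-fold in stromal-poor ones (-1.02 and -1.11), where 4 of 12 chemokine genes were lower, while Ccl3 (0.28) and Ccl4 (0.14) were close to even.

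None of the 14 general macrophage genes outside the rule reached 2-fold between the areas, and their median was -0.02. Ms4a7 (0.62) and Ctss (0.48) had the highest values, and thinned, Ms4a7 had a UMI in 88.8% of infarct macrophages (84.1 to 92.6) and in 71.3% of peri-infarct macrophages (63.2 to 78.6). C1qb, C1qc and Laptm5 had log2 ratios of 0.02, -0.11 and -0.01, and the fractalkine receptor Cx3cr1 had -0.16. Of 8 class II genes of antigen presentation 6 passed the floor, none was past 2-fold, and the median was -0.13. H2-Aa had 613 CPM in infarct and 644 CPM in peri-infarct macrophages, and at least 3 class II genes were present in 21.7% of stromal-poor infarct (16.2 to 27.98) and 20.8% of stromal-poor peri-infarct macrophages (14.2 to 28.8).

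Recruitment genes were sparse. Only Ccr2 of 8 classical monocyte genes passed the floor, with 46.3 CPM in infarct and 89.5 CPM in peri-infarct macrophages, a log2 ratio of -0.94. In stromal-poor macrophages it was -1.12, past 2-fold. Thinned, Ccr2 had a UMI in 5.58% of infarct (3.00 to 9.35) and 9.09% of peri-infarct macrophages (4.93 to 15.04), with overlapping counting intervals. Plac8 was under the floor, with 13.3 CPM in infarct and 53.9 CPM in peri-infarct macrophages.

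Further lists held few or no calls. Of 11 genes for the uptake of dying cells 9 passed the floor and 1 was higher (median -0.11). That gene was the bridging protein Mfge8, with 183 CPM in infarct and 82.7 CPM in peri-infarct macrophages and a log2 ratio of 1.14, but 1 cell held 48.9% of its infarct UMIs and the ratio was 0.31 without the top cell of each library. Of 8 iron and haem genes all 8 passed and 1 was lower, Cd163 (median -0.17). In stromal-poor macrophages the iron exporter gene Slc40a1 was lower too, at -1.23. Over all alternatives tried it ran between -1.36 and 1.14, so its direction depended on the setting. The ferritin genes Ftl1 and Fth1 had 20281 and 20914 CPM in infarct and 14681 and 16394 CPM in peri-infarct macrophages, among the highest levels measured. Of 9 complement genes 8 passed and C4b was lower at -1.02 (median -0.12), a call lost under 5 alternatives. In stromal-poor macrophages C4b was at -1.63.

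Of 11 growth factor genes 5 passed the floor with none past 2-fold and a median of -0.03, among them Pdgfa (0.46), Osm (-0.21) and Tgfbi (-0.17). Pdgfb, the pericyte growth factor, was under the floor at 40.3 CPM in infarct and 34.0 CPM in peri-infarct macrophages. Of 9 matrix protease genes and inhibitors 4 passed with none past 2-fold (median 0.23). In stromal-poor macrophages the macrophage elastase gene Mmp12 passed the floor and was lower, at -1.21. Of 8 Fc receptor and signalling genes, 8 passed with none past 2-fold (median 0.09), and of 13 glycolysis and hypoxia genes 9 passed with none past 2-fold (median 0.01). Of 13 interferon genes only Ifitm3 (-0.51) and Bst2 (-0.40) passed.

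Genes induced by tissue digestion were measured beside these, since they can differ between dissociations. Of 18 such genes 16 passed the floor, none was past 2-fold, and the median was -0.26. Klf4 had the lowest value, at -0.78 (-1.29 and past 2-fold in stromal-poor macrophages), with 242 CPM in infarct and 416 CPM in peri-infarct macrophages. The median mitochondrial share was 4.62% in infarct and 5.60% in peri-infarct macrophages. The part of digestion or RNA quality in the differences between the areas was not tested.

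Division genes were lower in the infarct over all macrophages. Of 10 listed genes 3 passed the floor and all 3 were lower: Mki67 with 61.3 CPM in infarct and 131 CPM in peri-infarct macrophages (-1.08), Top2a (-1.12) and the tubulin regulator Stmn1 (-1.08). In stromal-poor macrophages none of the 3 reached 2-fold, at -0.70, -0.60 and -0.69. The histone genes Hist1h2ap (-2.63) and Hist1h1b (-2.55) stayed lower there, at -2.34 and -1.93. Each is one of many near-identical histone copies, so its count is uncertain. Hist1h2ap had a UMI in only 3.86% of infarct and 10.5% of peri-infarct macrophages, and its top cell held 38.0% of the infarct and 37.3% of the peri-infarct UMIs.

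Of the 12 genes higher in infarct macrophages, all but Il1a and Acp5 stood at higher levels in the other sorted cells of the same library than in the macrophages, and several encode matrix proteins. Wisp2 had 99.4 CPM in infarct and 17.8 CPM in peri-infarct macrophages (log2 ratio 2.42), against 482 CPM in infarct and 153 CPM in peri-infarct other sorted cells. The elastin gene Eln had 602 CPM in infarct and 138 CPM in peri-infarct macrophages (2.12), against 1927 CPM in infarct and 840 CPM in peri-infarct other sorted cells. The collagen crosslinking enzyme gene Lox followed at 2.14. In stromal-poor macrophages Eln was at 44.1 CPM in infarct and 17.5 CPM in peri-infarct, and Wisp2 at 11.97 CPM in infarct and 1.94 CPM in peri-infarct. Without the cells marked as doublets the log2 ratios turned negative for Wisp2 (-0.14), Lox (-0.39), Eln (-0.78), Cthrc1 (-0.75), Ptn (-1.53) and Fbln5 (-1.83).

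Stromal genes on the lower side also changed without the stromal-rich cells. Acta2 and Tagln, contractile genes of mural cells, had log2 ratios of -1.08 and -1.10 over all macrophages but 0.30 and 0.09 in stromal-poor ones. Gsn, encoding gelsolin, had 354 CPM in infarct and 1245 CPM in peri-infarct macrophages (-1.81), and other sorted cells had 1690 CPM in the infarct and 10233 CPM in the peri-infarct. In stromal-poor macrophages Gsn was still lower at -1.80, at 236 CPM in infarct and 825 CPM in peri-infarct. Whether free stromal RNA set that value was not tested. The fibroblast genes Clec3b and Pi16 were lower at -1.59 and -1.41. In other sorted cells Clec3b had 312 CPM in the infarct and 741 CPM in the peri-infarct, and Pi16 584 CPM in the infarct and 960 CPM in the peri-infarct.

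In the 23 sham-heart cells that met the rule, C1qb reached 2576 CPM from 100 UMIs and Mrc1 464 CPM from 18 UMIs. Trem2 had 103 CPM from 4 UMIs, and neither Spp1, Gpnmb nor Ccr2 had a UMI among 38820. A count of 0 there allows up to 77.3 CPM, against 951 CPM of Spp1 in infarct and 628 CPM in peri-infarct macrophages. The Ccr2 level of infarct macrophages lies under this limit, so its 0 in the sham cells shows no difference from them. The 135 cells that met the rule in the brain infarct had 35965 CPM of Spp1. Only 3 of the 23 sham cells had more marker UMIs than stromal UMIs. The depth and the stromal content of the sham cells permit no finer comparison.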

How the data were processed

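UMI counts per gene and cell were deposited by the authors as 1 matrix per library. They were made from 10x Genomics 3′ version 3 libraries, per the labels' protocols, and the submitters' processing notes name Cell Ranger 3.0.2, Seurat 3 and mm10. The 6 libraries held 11796570 to 107892408 UMIs, 107892408 in the infarct and 95248788 in the peri-infarct. From these counts, cells were chosen by the stated rule and summed per library to CPM with Python 3.11.15, numpy 2.4.6 and scipy 1.17.1. A gene was compared at a mean of at least 50 CPM, on CPM + 1, and called at 2-fold. Ratio intervals are exact and conditional on the summed UMIs, share intervals are Clopper-Pearson, both at 95%. The 2-fold calls were tested on simulated data. Doublets and clusters came from scanpy 1.11.5 (2000 variable genes, 30 components, 15 neighbours, resolution 0.5), and TMM factors from edgeR 4.0.16. Positions are from GENCODE M21 and promoters from RefSeq.

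With 1 library per group there was no test across samples. The macrophages, gene lists and rules for naming genes were chosen with earlier results of these data known. Genes named were the 15 highest and 15 lowest ratios, leaving out ribosomal, mitochondrial, predicted and sex-linked genes, up to 4 per list by size of ratio, the 20 furthest above other sorted cells, and a set always named. Some genes that this rule names are not reported here. S100a9, Ccl24, Ccr7 and other list members outside this rule were added after their values were seen. Alternatives changed the marker, gene and mitochondrial thresholds, Cdh5, doublets, stromal-rich cells, scaling, cell weight, depth, the CPM floor and the added constant.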

Additional observations from a re-analysis of the deposited data

How the results depend on the processing

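No paired analysis was possible because each group was 1 library and the labels carry no replicate numbers. The median log2 ratio of the resident list (-1.26) lay between -1.40 and -1.14 under every alternative, and those of the class II, lysosomal and lipid-associated lists moved by less than 0.5. The counts of genes depended on the settings. Against 12 genes higher in infarct as reported, the number of all genes called higher was 24 with at least 5 markers, 6 without doublets, 7 in stromal-poor macrophages, 27 with thinned cells chosen again, 27 at a floor of 20 CPM, 3 at 100 CPM and 396 with no floor. Against 35 lower genes, the number of all genes called lower was 66 with at least 3 markers, 62 at 5% mitochondrial UMIs, 55 without doublets, 79 with thinned cells, 96 at 20 CPM, 15 at 100 CPM and 1099 with no floor. Without doublets 4 of the 12 higher and 19 of the 35 lower genes were shared with the reported calls, and in stromal-poor macrophages 3 and 20. The macrophages numbered 143 in the infarct and 53 in the peri-infarct at 5% mitochondrial UMIs. In the infarct they numbered 200 without doublets, 203 when stromal-poor and 193 with stromal UMIs under 0.5% of the cell.

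Some named genes under 2-fold crossed 0 over the alternatives, such as Il1b (-0.57 to 0.13), Spp1 (-0.04 to 0.75) and Slc40a1 (-1.36 to 1.14). Among named genes called at 2-fold, signs changed for 9, all at higher levels in the other sorted cells than in the macrophages. Without doublets the log2 ratios were -0.14 for Wisp2, -0.39 for Lox, -0.78 for Eln, -0.75 for Cthrc1, -1.53 for Ptn and -1.83 for Fbln5. Fbln5 was -0.77 in stromal-poor macrophages and -0.61 under 0.5% stromal UMIs, and Sfrp2 was -0.12 at 5% mitochondrial UMIs. Tagln turned to 0.37 with at least 3 markers, 1.29 at 5% mitochondrial UMIs, 0.46 without doublets, 0.086 in stromal-poor macrophages, 0.27 under 0.5% stromal UMIs and 0.21 with thinned cells. Acta2 turned to 1.47 at 5% mitochondrial UMIs, 1.18 without doublets, 0.30 in stromal-poor macrophages, 1.16 under 0.5% stromal UMIs and 0.028 with thinned cells. Leaving out doublets or stromal-rich cells removes the cells that hold most stromal UMIs; the cause of the other changes was not tested. The limit of 0.5% and the removal of each gene's top cell were chosen after seeing the data. With 376 macrophages, genes under 50 CPM rest on few UMIs, and no setting replaces a second library per area.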
